A study of Mus musculus with 4 samples.

Results

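The promoters of 54 developmental transcription factor genes of the Pax-, Sox-, Lhx-, Six-, Dlx- and Irx-families were followed in the left ventricle of the mouse. Members were chosen by name, as every symbol made of a family name followed by a number. They comprised 54 of 23631 genes, with 9 Pax, 19 Sox, 8 Lhx, 6 Six-family, 6 Dlx and 6 Irx genes. The 54 genes had 75 RefSeq transcript IDs, and the ID with most counts on average stood for its gene. All 54 had a mean count of at least 10 over the libraries, so none was lost to the filter on low counts.

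Acetylated histone H3, a mark of active promoters, was precipitated from ventricles of C57BL6 males, 10 to 12 weeks old, and the bound DNA was sequenced. The TAC TSA library came from mice with transverse aortic constriction (TAC), which narrows the aorta and loads the ventricle with pressure, and 4 weeks of trichostatin A (TSA), which blocks histone deacetylases, at 0.6 mg/kg daily. The TAC Veh library came from constricted mice given the solvent DMSO. The Sham TSA and Sham Veh libraries came from sham-operated mice given TSA and DMSO. All 4 groups shared strain, sex, antibody lot and a schedule of 2 injections a day. Each was measured in 1 library, and thus without a replicate. The labels do not say how many animals a library held, and only the sham labels point to an earlier deposit. Surgery and any difference in library preparation therefore cannot be told apart. Whole ventricle was used, so fewer cells of a type and less acetylation per cell cannot be told apart either.

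The proteins of these families bind DNA through a paired domain, an HMG box, a homeodomain or a combination of these, and set cell identity in the embryo. Their promoters are typically rich in CpG dinucleotides. In tissues that do not use such a gene the promoter is typically kept silent by Polycomb complexes, with little histone acetylation. Several members are known in the heart, among them Irx4, a factor of ventricular identity, Irx3, a factor of the ventricular conduction system, and the endothelial factors Sox7, Sox17 and Sox18.

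The promoter sequences of 6 members on which the results turn are shown to set CpG content beside acetylation. Irx4 and Irx3 differed between libraries, and Sox1 and Sox14 were weakly acetylated. Six5 and Sox13 were strongly acetylated, and their highest level was 1.03-fold and 1.14-fold their lowest. Each run is the 250 bases before the RefSeq start on the strand of the gene, from RefSeq GRCm38.p6, with CpG dinucleotides in capitals. The counts were made on the mm9 build over a window that is not given in the sources used here, so the runs show the neighbourhood of the start and not the counted window.
Irx4 (chr13:73260247-73260496, plus strand): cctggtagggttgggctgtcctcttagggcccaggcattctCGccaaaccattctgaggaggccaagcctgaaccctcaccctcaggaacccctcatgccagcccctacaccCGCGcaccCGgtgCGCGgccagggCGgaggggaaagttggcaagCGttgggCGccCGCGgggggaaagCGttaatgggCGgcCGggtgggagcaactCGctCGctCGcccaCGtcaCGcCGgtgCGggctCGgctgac
Irx3 (chr8:91801655-91801904, minus strand): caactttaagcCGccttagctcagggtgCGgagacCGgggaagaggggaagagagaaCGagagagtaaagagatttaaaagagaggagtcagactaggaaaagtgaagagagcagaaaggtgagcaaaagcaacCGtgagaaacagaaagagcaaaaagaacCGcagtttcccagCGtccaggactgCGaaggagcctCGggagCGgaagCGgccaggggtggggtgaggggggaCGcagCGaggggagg
Six5 (chr7:19094294-19094543, plus strand): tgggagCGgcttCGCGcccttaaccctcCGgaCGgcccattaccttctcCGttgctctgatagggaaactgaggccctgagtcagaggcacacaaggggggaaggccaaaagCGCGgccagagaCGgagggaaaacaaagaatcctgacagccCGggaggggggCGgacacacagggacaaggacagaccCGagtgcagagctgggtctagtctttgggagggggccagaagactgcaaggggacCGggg
Sox13 (chr1:133424213-133424462, minus strand): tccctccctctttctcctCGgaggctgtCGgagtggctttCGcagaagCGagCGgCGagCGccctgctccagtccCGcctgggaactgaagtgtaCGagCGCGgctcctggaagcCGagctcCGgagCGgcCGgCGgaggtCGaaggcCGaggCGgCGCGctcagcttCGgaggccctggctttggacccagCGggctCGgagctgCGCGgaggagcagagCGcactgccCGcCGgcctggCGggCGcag
Sox1 (chr8:12395269-12395518, plus strand): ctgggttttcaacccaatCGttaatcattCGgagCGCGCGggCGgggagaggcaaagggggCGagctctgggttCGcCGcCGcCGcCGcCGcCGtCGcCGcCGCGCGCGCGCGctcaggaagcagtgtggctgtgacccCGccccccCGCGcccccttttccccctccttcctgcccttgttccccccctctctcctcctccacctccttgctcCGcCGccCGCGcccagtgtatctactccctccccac
Sox14 (chr9:99876171-99876420, minus strand): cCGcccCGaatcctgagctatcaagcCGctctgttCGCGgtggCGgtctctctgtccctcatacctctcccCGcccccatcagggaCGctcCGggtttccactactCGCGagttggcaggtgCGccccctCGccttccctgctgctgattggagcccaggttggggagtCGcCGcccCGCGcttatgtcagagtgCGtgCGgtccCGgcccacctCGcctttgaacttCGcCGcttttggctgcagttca

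The runs held 22 CpG in Irx4, 13 in Irx3, 13 in Six5, 31 in Sox13, 29 in Sox1 and 23 in Sox14, where the median over 32851 RefSeq promoter sequences of the same length was 6. At least as many CpG as in Sox1 were present in 6.78% of all these sequences, and at least as many as in Sox14 in 13.3%. The 6 were picked for their levels or differences, so they cannot show whether CpG content follows acetylation. Sox1 and Sox14 had more CpG than Six5, and much lower counts. The GC box GGGCGG, searched on both strands, was present in Irx4, Six5, Sox1 and Sox14 and in 32.74% of all promoter sequences. The CCAAT box, searched likewise, was present in Sox1 and Sox14 and in 33.85% of all. Neither the TATA box TATAAA (12.4% of all) nor the Sox motif AACAAT (9.42% of all), each searched on both strands, was found in any of the 6, and no motif searched contains another. A sequence was at hand for 37 of the 54 members (68.5%), which is under 80%, so a check of CpG content over all members is void.

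Summed over all genes, with 1 ID each, promoter counts came to 4895710 in TAC TSA, the shallowest library, and 7067361 in Sham TSA, the deepest, with medians of 180 and 255 counts per gene. Levels are given as CPM (counts-per-million) after TMM scaling (trimmed mean of M-values), which sets the bulk of promoters equal between libraries. Olfactory and vomeronasal receptor promoters, 1455 genes that the heart does not use, gave the level of background. These genes have near-identical copies, so reads may be split or lost among them and their level is uncertain to that extent. Their share of counts was 0.677% in TAC TSA, 0.505% in TAC Veh, 0.427% in Sham TSA and 0.420% in Sham Veh, and the 99th percentile of their level was 16.4, 14.9, 14.9 and 14.9 CPM in the same order. Markers of cardiomyocytes were well acetylated (median percentile 70.6 of all promoters), and none was at 0.

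Most developmental promoters stood below the median promoter of the ventricle, but few were among the weakest, and few among the strongest. Of the deciles of promoters by mean level, decile 1, the lowest, held 0 members and decile 2 held 3. The median member stood at percentile 37.8 of the 22835 promoters tested, 16 of 54 stood above the median promoter, and 3 were in the top 10%. Median levels were 22.9 CPM in TAC TSA, 21.5 in TAC Veh, 20.6 in Sham TSA and 21.8 in Sham Veh, where the medians of all promoters lay between 35.7 and 36.8 CPM. Levels of different promoters are compared on the assumption that all windows had the same length. The 99th percentile of receptor promoters was exceeded by 37 members (68.5%) in TAC TSA, 37 (68.5%) in TAC Veh, 38 (70.4%) in Sham TSA and 38 (70.4%) in Sham Veh. It was exceeded by 69.9%, 69.8%, 69.3% and 69.6% of all promoters in the same order. In all 4 libraries 35 members (64.8%) exceeded it, where 66.9% of all promoters did, and 14 members (25.9%) stayed within it, where 27.6% of all did. By this measure of background the members were thus close to all promoters.

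**Figure D1:**
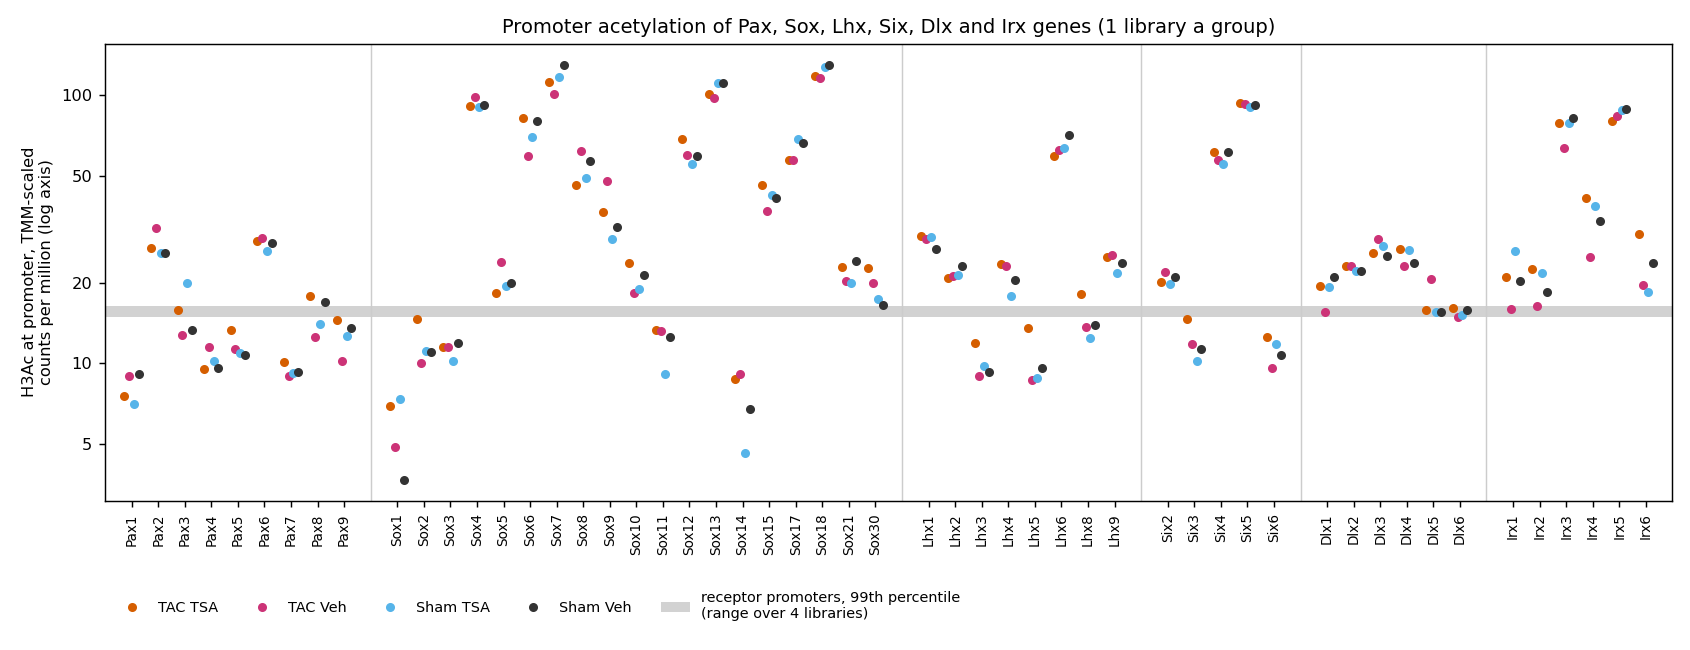
Promoter acetylation of the members, all but 1 of the 54, in scaled CPM on a log axis, 1 point per library, with the 99th percentile of receptor promoters as a grey band (14.9 to 16.4 CPM). Sox18, Sox7, Sox13, Six5, Sox4, Irx5 and Irx3 stand highest, and 14 members, among them Sox1 and Sox14, lie under the band in all libraries.

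The number of members at background rests on the cutoff. The 95th percentile of receptor promoters, 7.36 to 9.92 CPM, was exceeded by 50 members in TAC TSA, 53 in TAC Veh, 51 in Sham TSA and 52 in Sham Veh. The share of all promoters above it was not counted. The receptor range named below ends at the 99th percentile. Within it in all 4 libraries were Pax1, Pax4, Pax5, Pax7, Pax9, Sox1, Sox2, Sox3, Sox11, Sox14, Lhx3, Lhx5, Six3 and Six6. Most are factors of the nervous system, eye, axial skeleton or lymphocytes. At the other end were the endothelial factors Sox18, at percentile 97.7, and Sox7, at 96.6, and the Sox D factor Sox13, at 94.2. They were followed by Sox4 (89.7), a factor of many progenitors, Six5 (89.4), which neighbours the muscle kinase gene Dmpk, Irx5 (85.9), a factor of the ventricular repolarisation gradient, Irx3 (79.6) and Sox6 (77.7). The family medians were percentile 26.7 for Pax, 50.05 for Sox, 37.8 for Lhx, 44.2 for Six-family genes, 37.0 for Dlx and 44.2 for Irx. Within Sox, the endothelial group F (Sox7, Sox17, Sox18) had a median percentile of 96.6 and the neural group B1 (Sox1, Sox2, Sox3) one of 24.1.

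Differences between libraries were small. The highest over the lowest of the 4 levels was 1.29-fold for the median member, 1.03-fold for Six5, the steadiest, and 2.00-fold for Sox1. The highest of the 4 levels was in TAC TSA for 25 members, in TAC Veh for 13, in Sham TSA for 4 and in Sham Veh for 12. The lowest was in TAC TSA for 6, in TAC Veh for 23, in Sham TSA for 18 and in Sham Veh for 7. These tallies were not made over all promoters, so whether they are particular to these families is not known.

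Differences are given below as log2 ratios with exact 95% intervals, which cover counting error only and compare libraries, not conditions. Promoters with a ratio of 1.5-fold or more, in either direction, and an interval that excluded 0 are called apart. For TAC TSA over TAC Veh, the effect of TSA under pressure overload, 3 of 54 members (5.56%) were apart and higher, where 4.06% of all promoters were. These were Irx4, Irx6 and Lhx5. None was apart and lower, where 0.342% of all were. The interval lay above 0 for 10 members (18.5%, against 8.13% of all) and below 0 for 3 (5.56%, against 10.4%). The median ratio of members was 0.13, and that of all promoters 0.00.

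For TAC TSA over Sham TSA, pressure overload in treated animals, 3 members (Irx6, Lhx5 and Sox14) were apart and higher, where 7.16% of all promoters were, and none lower, where 0.206% were. The interval lay above 0 for 11 (20.4%, against 10.3%) and below 0 for 1 (1.85%, against 13.8%), with a median of 0.08 beside −0.01 for all promoters. For TAC Veh over Sham Veh, pressure overload without TSA, no member was apart in either direction, where 1.93% of all promoters were higher and 0.582% lower. The interval lay above 0 for 3 members (5.56%, against 5.82%) and below 0 for 9 (16.7%, against 7.2%), and the median was −0.05 beside 0.00. For Sham TSA over Sham Veh, TSA without overload, 2 members (Pax3 and Sox1) were apart and higher, where 0.582% of all were, and none lower, where 0.578% were. The interval lay above 0 for 3 (5.56%, against 5.22%) and below 0 for 3 (5.56%, against 3.79%), and the median was −0.04 beside 0.01. These comparisons share libraries, so their values are not independent.

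The 1 test with a residual degree of freedom fitted surgery and drug as additive effects over all 4 libraries (edgeR quasi-likelihood test, Benjamini-Hochberg adjustment over 22835 promoters). Its residual is the surgery by drug interaction. No member passed an adjusted p of 0.05 for either effect, by edgeR, DESeq2 or limma-voom, where edgeR called 0.0131% of all promoters higher and 0.0219% lower with surgery and 0.206% higher and 0.00876% lower with TSA. At an unadjusted p under 0.05 edgeR listed 2 members higher with surgery (Sox9 and Sox14) and 2 lower (Sox7 and Sox17), where 5.21% and 4.11% of all promoters passed. With TSA it listed 4 higher (Pax3, Sox1, Irx1 and Irx4) and 1 lower (Sox8), where 2.78% and 1.49% of all passed. The smallest adjusted p among members was 0.237, for Sox9 and surgery (log2 fold change 0.46), followed by 0.292 for Irx4 and drug (0.44).

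Many members are weak promoters, and weak promoters as a class stood higher in TAC TSA than in the other libraries. Of the members, 28 stood in deciles 3 and 4 of promoters by mean level, where the median ratio of all promoters was 0.27 and 0.14 for TAC TSA over Sham TSA and 0.19 and 0.12 for TAC TSA over TAC Veh. The 14 members within the receptor range had a median of 0.23 for TAC TSA over Sham TSA, and the 35 members above it one of 0.04. For TAC TSA over TAC Veh these medians were 0.27 and 0.03. Loess scaling, which removes the trend with level, moved the split of all promoters apart and higher against lower to 311 and 253 in TAC TSA over TAC Veh, where TMM gave 927 and 78. In TAC TSA over Sham TSA it gave 186 and 309, where TMM gave 1635 and 47, and in TAC Veh over Sham Veh 194 and 250, where TMM gave 440 and 133. With it the median of all 54 was 0.00 for TAC TSA over Sham TSA and 0.09 for TAC TSA over TAC Veh. Scaling to the receptor promoters instead shifted the median of all promoters to −0.38 for TAC TSA over TAC Veh, −0.61 for TAC TSA over Sham TSA and −0.24 for TAC Veh over Sham Veh. The median of members turned to −0.26 and −0.51 in the TAC TSA comparisons and was −0.30 in TAC Veh over Sham Veh. Spearman's rho between level and ratio, as a description over 54 members that share the same libraries, was −0.40 for TAC TSA over Sham TSA, where it was −0.64 over all promoters.

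**Figure D2:**
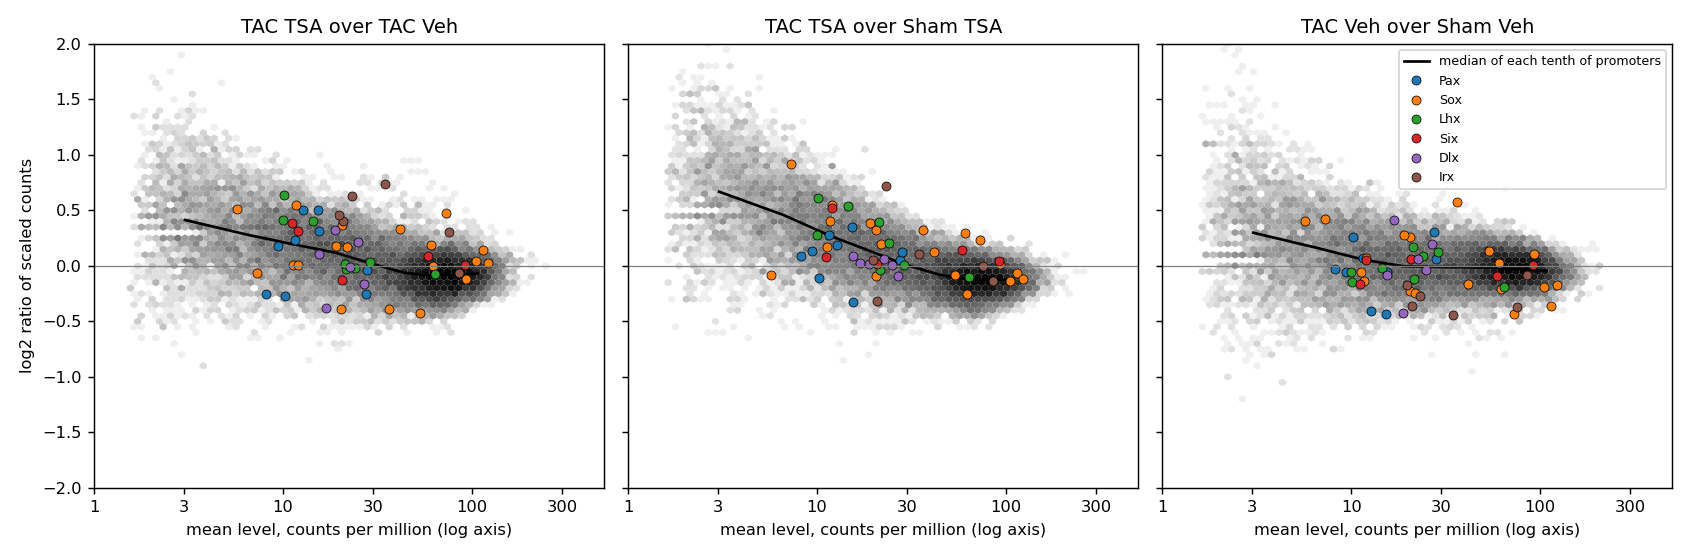
Log2 ratio of scaled counts against mean level (CPM, log axis) for all promoters (grey density, ratios beyond the axis not drawn) and the members (all but 1 of the 54, coloured by family), with the median of each decile of promoters as a line. That line slopes down for TAC TSA over Sham TSA, with 0.27 in decile 3 and 0.14 in decile 4. Irx4 and Irx6 stand above it in TAC TSA over TAC Veh (0.74 and 0.63).

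The Irx family had the largest family median of the 6 in TAC TSA over TAC Veh, 0.43, and the lowest in TAC Veh over Sham Veh, −0.32. With loess scaling these medians were 0.37 and −0.31, and with receptor scaling 0.05 and −0.56. For TAC TSA over Sham TSA the median was 0.02 and for Sham TSA over Sham Veh 0.09. Summed over the 6 genes, Irx promoters held 273.6 CPM in TAC TSA, 223.7 in TAC Veh, 271.1 in Sham TSA and 266.3 in Sham Veh. The TAC Veh library was thus the low library of the 4.

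Irx4 had 209 counts (41.5 CPM) in TAC TSA, 158 (24.8 CPM) in TAC Veh, 267 (38.5 CPM) in Sham TSA and 229 (33.8 CPM) in Sham Veh. TAC Veh was lowest, and the other three lay between 33.8 and 41.5 CPM. Irx4 was 1.67-fold higher in TAC TSA than TAC Veh (log2 ratio 0.74, interval 0.43 to 1.05), the largest such ratio among the members, and it was also apart with loess scaling (0.74), but not with receptor scaling (0.35). In TAC Veh over Sham Veh it was lower without reaching 1.5-fold (−0.44, −0.74 to −0.14). Between TAC TSA and Sham TSA the ratio was 0.11 (−0.16 to 0.37) and in Sham TSA over Sham Veh 0.19 (−0.07 to 0.45). In the additive fit across all promoters, the TSA coefficient of Irx4 was 0.44 with an edgeR adjusted p of 0.292.

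Irx3 showed the same low library at a higher level, with 395 counts (78.4 CPM) in TAC TSA, 403 (63.4 CPM) in TAC Veh, 544 (78.5 CPM) in Sham TSA and 554 (81.7 CPM) in Sham Veh. Its ratio was 0.31 (0.10 to 0.51) in TAC TSA over TAC Veh and −0.37 (−0.56 to −0.18) in TAC Veh over Sham Veh, neither 1.5-fold, and with receptor scaling the first turned to −0.08. Against Sham TSA the TAC TSA level was at 0.00 (−0.19 to 0.19). Irx5, which lies in the same gene cluster as Irx3, was level. It had 79.96 CPM in TAC TSA, 83.6 in TAC Veh, 87.7 in Sham TSA and 88.3 in Sham Veh, and every interval included 0.

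Irx6, the third gene of that cluster and best known from the retina, did not follow Irx3. It had 153 counts (30.4 CPM) in TAC TSA, 125 (19.7 CPM) in TAC Veh, 128 (18.5 CPM) in Sham TSA and 161 (23.7 CPM) in Sham Veh. TAC TSA stood above the other libraries, at 0.63 (0.28 to 0.98) over TAC Veh and 0.72 (0.37 to 1.07) over Sham TSA. With loess scaling these were 0.56, which is short of 1.5-fold, and 0.64, and with receptor scaling 0.24 and 0.12. Irx6 was lower in Sham TSA than Sham Veh (−0.36, −0.71 to −0.02).

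Irx1 and Irx2 lie in the cluster of Irx4. Irx1 had 21.0 CPM in TAC TSA, 15.9 in TAC Veh, 26.3 in Sham TSA and 20.4 in Sham Veh, with a ratio of 0.41 (0.00 to 0.81, the lower bound just under 0) in TAC TSA over TAC Veh and 0.37 (0.04 to 0.70) in Sham TSA over Sham Veh. Irx2 had 22.4 CPM in TAC TSA, 16.4 in TAC Veh, 21.6 in Sham TSA and 18.4 in Sham Veh, with a ratio of 0.46 (0.06 to 0.85) in TAC TSA over TAC Veh. Both had higher levels in each TSA library than in its vehicle library, as had Irx4, and none of the sham ratios reached 1.5-fold.

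Cardiomyocyte markers were also lowest in TAC Veh, as were Irx1, Irx2, Irx3 and Irx4 but not Irx5 or Irx6. Their summed level was 698.0 CPM in TAC TSA, 426.9 in TAC Veh, 710.5 in Sham TSA and 614.6 in Sham Veh, and none of the 10 was at 0. In TAC TSA over TAC Veh 8 of 10 were apart and higher (median 0.68), and in TAC Veh over Sham Veh 5 of 10 were apart and lower (median −0.57). The additive fit called 5 of 10 for the drug effect (edgeR, adjusted over all promoters) and none of the 6 Irx genes. Irx6 was lowest in Sham TSA, where the marker sum was highest. The part of cardiomyocyte content in the Irx values was not tested.

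**Figure D3:**
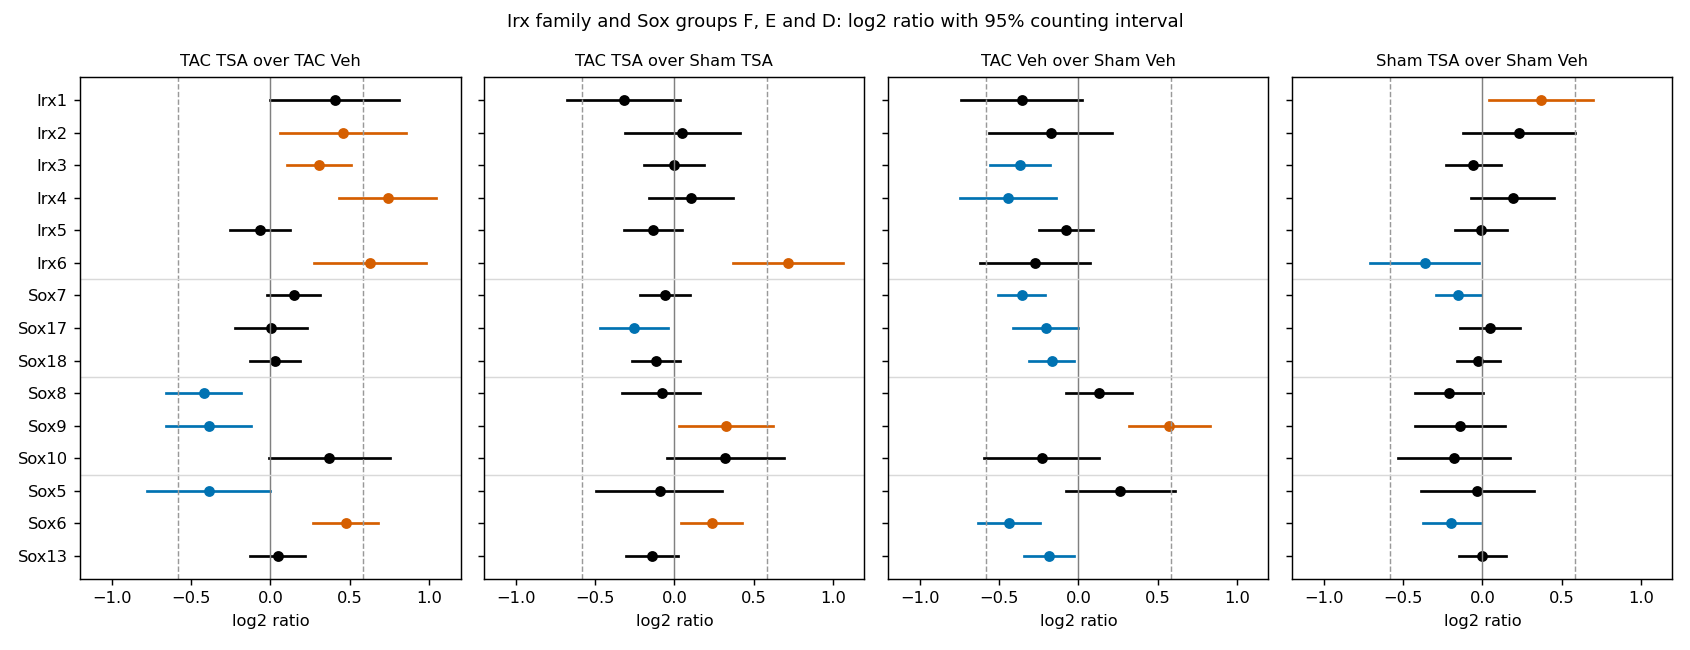
Log2 ratios (points) with 95% counting intervals (bars) for the Irx family and the Sox groups F, E and D in the 4 comparisons, coloured where the interval excludes 0, with dashed lines at 1.5-fold. Irx4, Irx3, Irx2 and Irx6 lie above 0 in TAC TSA over TAC Veh, and the 3 Sox F promoters below 0 in TAC Veh over Sham Veh.

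The Sox F genes, which direct endothelial and lymphatic identity, were slightly lower in the TAC libraries. Sox7 had 563 counts (112 CPM) in TAC TSA, 642 (100.9 CPM) in TAC Veh, 807 (116 CPM) in Sham TSA and 877 (129 CPM) in Sham Veh. Sox18 had 117 CPM in TAC TSA, 115 in TAC Veh, 127 in Sham TSA and 129 in Sham Veh. Sox17 had 57.3 CPM in TAC TSA, 57.2 in TAC Veh, 68.4 in Sham TSA and 66.1 in Sham Veh. For each of the 3 both TAC libraries lay below both sham libraries with TMM scaling. With loess scaling the ratio of TAC TSA over Sham TSA was 0.06 for Sox7 and 0.00 for Sox18, and −0.14 for Sox17.

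In TAC Veh over Sham Veh the Sox F ratios were −0.36 (−0.51 to −0.21) for Sox7, −0.21 (−0.41 to 0.00, the upper bound just under 0) for Sox17 and −0.17 (−0.31 to −0.03) for Sox18. None was 1.5-fold lower. Between the TSA libraries they were −0.06 (−0.22 to 0.10), −0.25 (−0.47 to −0.04) and −0.12 (−0.27 to 0.04). The additive surgery effect had an unadjusted edgeR p of 0.0161 for Sox7 and 0.0414 for Sox17, and neither passed adjustment. Endothelial markers moved the same way. Their sum was 828.6 CPM in TAC TSA, 801.6 in TAC Veh, 871.7 in Sham TSA and 909.6 in Sham Veh, with 7 of 10 intervals below 0 in TAC Veh over Sham Veh (median −0.19) and none of the 10 at 0. Their median between TAC TSA and Sham TSA was −0.09, and 0.01 with loess scaling. The part of endothelial content in the Sox F values was not tested.

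The Sox E genes went different ways. Sox9, a factor of cartilage, heart valves and fibrotic tissue, had 184 counts (36.5 CPM) in TAC TSA, 304 (47.8 CPM) in TAC Veh, 202 (29.1 CPM) in Sham TSA and 218 (32.1 CPM) in Sham Veh. TAC Veh was highest, and TAC TSA lay between it and the sham libraries. The ratio was 0.57 (0.32 to 0.83) in TAC Veh over Sham Veh, 1.49-fold and so just short of the threshold, and 0.59 with loess scaling, which is past it. In TAC TSA over TAC Veh it was −0.39 (−0.66 to −0.12) and in TAC TSA over Sham TSA 0.32 (0.03 to 0.62), which turned to −0.27 with receptor scaling. The additive surgery effect of Sox9 was 0.46, with an unadjusted edgeR p of 0.000831 and an adjusted p of 0.237.

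Sox8, a relative of Sox9, had 233 counts (46.2 CPM) in TAC TSA, 394 (62.0 CPM) in TAC Veh, 339 (48.9 CPM) in Sham TSA and 384 (56.6 CPM) in Sham Veh. Each TSA library was below its vehicle library, at −0.42 (−0.66 to −0.18) under TAC and −0.21 (−0.43 to 0.00, the upper bound just above 0) under sham. The additive TSA effect of −0.31 had an unadjusted edgeR p of 0.00817 and an adjusted p of 0.678. Sox10, the factor of neural crest and Schwann cells, had 23.6 CPM in TAC TSA, 18.2 in TAC Veh, 18.9 in Sham TSA and 21.4 in Sham Veh, and no interval between libraries excluded 0. Schwann and glia markers summed to 161.3, 153.8, 160.2 and 164.1 CPM in the same order, with no marker apart.

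Fibroblast markers were, like Sox9, highest in TAC Veh. Their sum was 288.9 CPM in TAC TSA, 340.1 in TAC Veh, 293.4 in Sham TSA and 275.5 in Sham Veh, none of the 9 was at 0, and 1 was apart and higher in TAC Veh over Sham Veh (median 0.24). They parted from Sox9 between TAC TSA and Sham TSA, where their median was −0.02 and Sox9 was at 0.32, and between Sham TSA and Sham Veh, where their median was 0.13 and Sox9 was at −0.14. Leukocyte markers, 7 of 8 analysed here, summed to 138.5 CPM in TAC TSA, 201.3 in TAC Veh, 193.9 in Sham TSA and 152.0 in Sham Veh, and were thus also high in Sham TSA, where Sox9 was not. None of the 7 was at 0. The smooth muscle and pericyte sum was 232.3, 261.8, 229.1 and 226.7 CPM in the same order of libraries. The part of any of these cells in the Sox9 value was not tested.

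**Figure D4:**
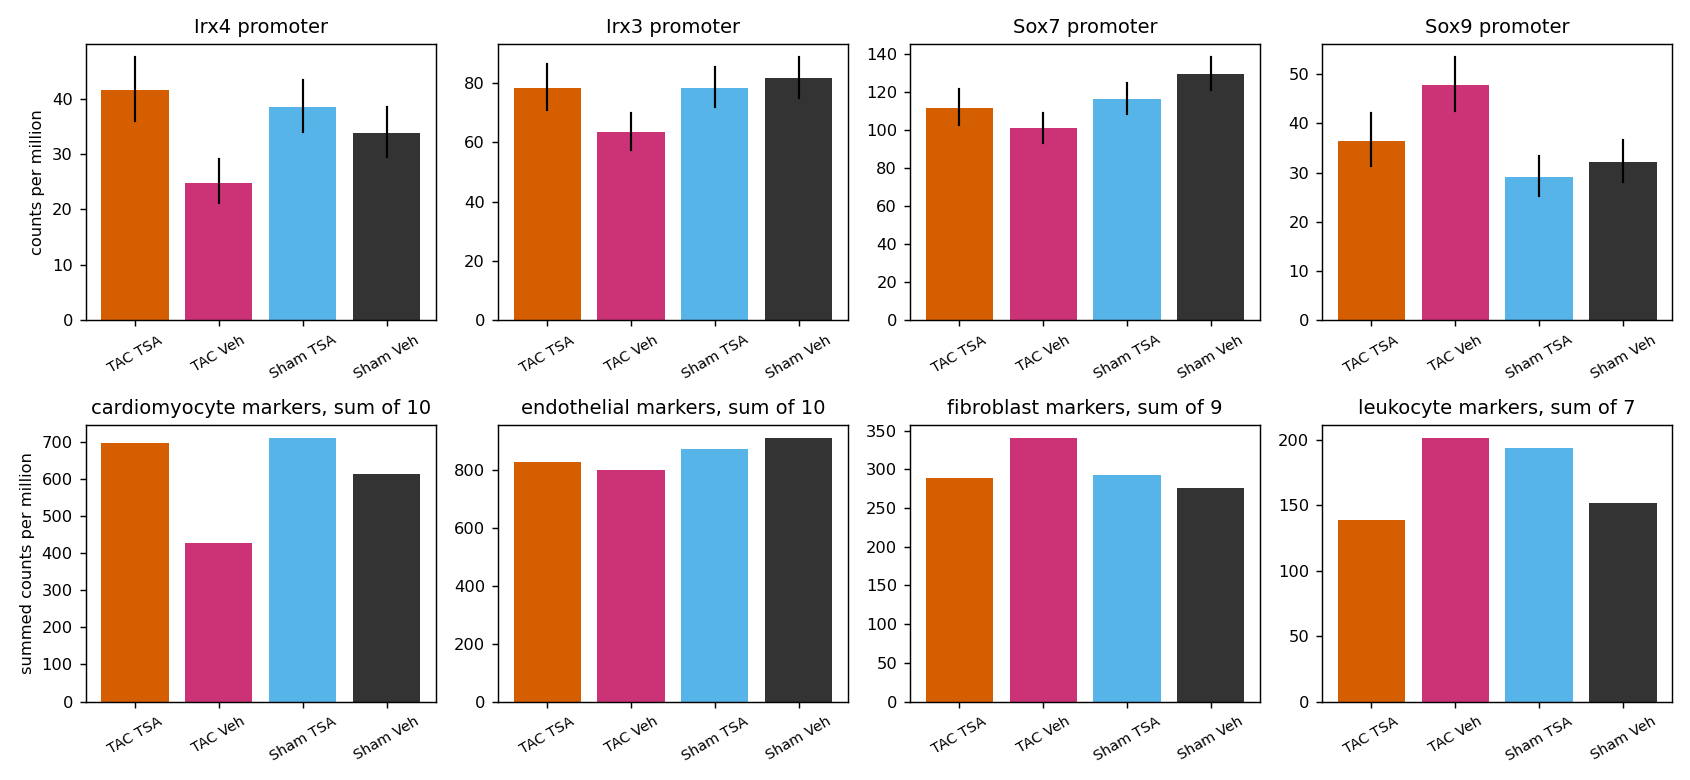
Upper row, promoter level of Irx4, Irx3, Sox7 and Sox9 in each library (bars, CPM) with exact 95% Poisson intervals of counting error (lines). Lower row, summed level of the marker lists of 4 cell types. TAC Veh is low for Irx4 (24.8 CPM) and cardiomyocyte markers (426.9 CPM) and high for Sox9 (47.8 CPM) and fibroblast markers (340.1 CPM).

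Among the Sox D genes, Sox6, a factor of muscle fibre type and red cell maturation, had 414 counts (82.1 CPM) in TAC TSA, 376 (59.1 CPM) in TAC Veh, 484 (69.8 CPM) in Sham TSA and 543 (80.1 CPM) in Sham Veh. TAC Veh was lowest and TAC TSA highest. The ratio was 0.47 (0.27 to 0.68) in TAC TSA over TAC Veh, −0.44 (−0.63 to −0.25) in TAC Veh over Sham Veh and 0.23 (0.04 to 0.43) in TAC TSA over Sham TSA. With loess scaling the last was 0.36, and with receptor scaling it turned to −0.36. Sox6 has 6 distinct promoter windows in the table. The second, with 206 counts in TAC TSA, 176 in TAC Veh, 230 in Sham TSA and 225 in Sham Veh, had a ratio of 0.56 (0.27 to 0.86) in TAC TSA over TAC Veh and −0.26 (−0.55 to 0.03) in TAC Veh over Sham Veh. The other windows had 34 to 67 counts in each library, and all their intervals included 0.

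Sox5 had 18.3 CPM in TAC TSA, 23.9 in TAC Veh, 19.5 in Sham TSA and 19.9 in Sham Veh, a ratio of −0.39 (−0.78 to −0.01) in TAC TSA over TAC Veh. Sox13 had 100.6 CPM in TAC TSA, 97.5 in TAC Veh and 111 in each sham library, with −0.19 (−0.34 to −0.03) in TAC Veh over Sham Veh. In the Sox C group, Sox4 had 91.1 CPM in TAC TSA, 98.6 in TAC Veh, 89.8 in Sham TSA and 91.4 in Sham Veh, and no interval excluded 0. Sox12 had 0.30 (0.09 to 0.51) between TAC TSA and Sham TSA. The other members had smaller or less certain differences. Lhx4 (0.40), Lhx8 (0.54), Sox11 (0.55) and Sox30 (0.39) also had intervals above 0 between TAC TSA and Sham TSA, as had Pax9 (0.50), Sox2 (0.55) and Sox15 (0.33) between TAC TSA and TAC Veh. Sox3, Sox21, Lhx2, Six2, Pax4, Pax5 and Pax7 had no interval off 0.

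Of the neural Sox groups B1 and B2, Sox1, Sox2, Sox3 and Sox14 lay within the receptor range, and Sox21 lay above it in all 4 libraries, between 19.9 and 24.0 CPM. Sox1, a marker of neural progenitors and the lowest member of all, had 35 counts (6.94 CPM) in TAC TSA, 31 (4.87 CPM) in TAC Veh, 51 (7.36 CPM) in Sham TSA and 25 (3.69 CPM) in Sham Veh. It was apart in Sham TSA over Sham Veh (1.00, 0.28 to 1.75), a difference that rests on these few counts. Sox14, a factor of ventral neurons, had 44 counts (8.73 CPM) in TAC TSA, 58 (9.12 CPM) in TAC Veh, 32 (4.62 CPM) in Sham TSA and 46 (6.78 CPM) in Sham Veh. It was apart in TAC TSA over Sham TSA (0.92, 0.23 to 1.62) but not with loess scaling (0.44) or receptor scaling (0.32). The levels of Sox1 and Sox14 were all under the 99th percentile of receptor promoters in their library.

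Pax promoters were the weakest family by median percentile, with 1 of 9 apart in any comparison at the window with most counts. The share of all promoters apart in any comparison was not counted, and a further window of Pax6 is given below. Pax6, the eye and forebrain factor, had 28.6 CPM in TAC TSA, 29.2 in TAC Veh, 26.1 in Sham TSA and 28.0 in Sham Veh. Pax2, a kidney and optic factor, had 26.8 CPM in TAC TSA, 31.9 in TAC Veh, 25.8 in Sham TSA and 25.8 in Sham Veh, with 0.31 (0.01 to 0.61) in TAC Veh over Sham Veh. Pax3, a factor of neural crest and muscle progenitors, had 80 counts (15.9 CPM) in TAC TSA, 81 (12.7 CPM) in TAC Veh, 138 (19.9 CPM) in Sham TSA and 90 (13.3 CPM) in Sham Veh. It was apart in Sham TSA over Sham Veh (0.59, 0.19 to 0.98), with Sham TSA the 1 library above the receptor range, and did not reach 1.5-fold with DESeq2 size factors. Pax8, the thyroid factor, was at 0.51 (0.05 to 0.96) in TAC TSA over TAC Veh and −0.43 (−0.86 to −0.01) in TAC Veh over Sham Veh. Pax1, the weakest Pax promoter, lay between 7.07 and 9.14 CPM, and no interval excluded 0.

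Among the LIM homeobox genes Lhx6, an interneuron factor, was strongest, with 59.3 CPM in TAC TSA, 62.3 in TAC Veh, 63.5 in Sham TSA and 70.9 in Sham Veh, and every interval included 0. Lhx1 lay between 26.7 and 29.8 CPM and Lhx9, a gonadal factor, between 21.6 and 25.3 CPM, also without an interval off 0. For Lhx6 and Lhx9 this holds for the window with most counts. Lhx5, a forebrain factor, had 68 counts (13.5 CPM) in TAC TSA, 55 (8.65 CPM) in TAC Veh, 61 (8.80 CPM) in Sham TSA and 65 (9.59 CPM) in Sham Veh, all within the receptor range. It was apart over TAC Veh (0.64, 0.11 to 1.18) and over Sham TSA (0.62, 0.10 to 1.14), but not with loess scaling (0.43 and 0.31) or receptor scaling (0.26 and 0.02). Lhx3, the pituitary factor and the weakest of the family, lay between 8.96 and 11.9 CPM.

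Six-family promoters were the steadiest of the 6 families in TAC Veh over Sham Veh, with ratios from −0.17 to 0.06. Six5 had 93.1 CPM in TAC TSA, 92.5 in TAC Veh, 90.5 in Sham TSA and 91.9 in Sham Veh, and its widest interval ran from −0.17 to 0.19. Six4 lay between 55.4 and 61.2 CPM, with no interval off 0. Six6, an eye factor and the weakest, lay between 9.59 and 12.5 CPM. Six3 had a ratio of 0.52 (0.03 to 1.01) between TAC TSA and Sham TSA on 74 and 71 counts.

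Dlx promoters, which serve the forebrain, branchial arches and skin, lay close to the upper end of the receptor range. With TMM scaling their family medians were within 0.05 of 0 in all comparisons. With loess scaling the median was −0.06 in TAC TSA over TAC Veh and −0.12 in TAC TSA over Sham TSA. Receptor scaling gave −0.34 and −0.57 there, where all promoters had −0.38 and −0.61. Dlx3 had 25.8 CPM in TAC TSA, 28.9 in TAC Veh, 27.4 in Sham TSA and 25.2 in Sham Veh. Dlx4, its neighbour, had 26.6, 23.0, 26.4 and 23.6 CPM in the same libraries, and Dlx2 lay between 22.1 and 23.1 CPM. Dlx6, the weakest by mean, lay between 14.9 and 16.1 CPM. Differences between neighbours were not tested. In TAC Veh over Sham Veh Dlx5 was at 0.41 (0.03 to 0.80) where Dlx6 was at −0.08 (−0.49 to 0.33), and Dlx1 at −0.43 (−0.81 to −0.05) where Dlx2 was at 0.06 (−0.27 to 0.40), with intervals that overlap in both pairs.

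The effect of surgery was set beside itself with and without TSA, as the log2 ratio of TAC TSA over Sham TSA minus that of TAC Veh over Sham Veh. With TMM scaling, the 95% Wald interval of counting error lay above 0 for 8 of 54 members (14.8%), against 7.07% of all promoters. It lay below 0 for none, against 9.17% of all. The 8 were Irx3, Irx4, Irx6, Sox6, Sox7, Sox10, Pax8 and Lhx5. The differences were 0.99 (0.51 to 1.47) for Irx6, 0.67 (0.40 to 0.94) for Sox6, 0.55 (0.16 to 0.94) for Irx4, 0.36 (0.10 to 0.63) for Irx3 and 0.30 (0.08 to 0.51) for Sox7. This interval was not computed with another scaling. With receptor scaling the 2 surgery ratios, with TSA first, were −0.60 and −0.61 for Irx3 and −0.66 and −0.60 for Sox7. They were −0.49 and −0.69 for Irx4, 0.12 and −0.52 for Irx6, and −0.36 and −0.68 for Sox6. For Sox10 they were −0.28 and −0.47, for Pax8 −0.25 and −0.67, and for Lhx5 0.02 and −0.39. With receptor scaling the 2 ratios of Irx3 and of Sox7 were thus close. With loess scaling they were 0.12 and −0.34 for Irx3 and 0.06 and −0.31 for Sox7. Which of the 8 intervals would stay off 0 with receptor scaling was not computed. The part of the trend with level in Pax8 and Lhx5 was not tested.

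Of the genes that work with these families, or that silence them, 1 was apart in any comparison. The share of all promoters apart in any comparison was not counted. The 16 cofactor genes (Eya and Dach, partners of Six-family and Pax proteins; Ldb and Lmo, partners of LIM factors; and Tle corepressors) had medians of 0.00 in TAC TSA over TAC Veh, −0.05 in TAC TSA over Sham TSA, −0.03 in TAC Veh over Sham Veh and −0.04 in Sham TSA over Sham Veh. The phosphatase and coactivator Eya2 was the 1 cofactor apart, lower in Sham TSA (91 counts) than in Sham Veh (143 counts), at −0.68 (−1.08 to −0.29). In that comparison 0.578% of all promoters were apart and lower. The 14 Polycomb and H3K27 demethylase genes had medians of −0.02, −0.13, −0.06 and 0.02 in the same comparisons, with none apart. Smaller differences went both ways among cofactors. In TAC TSA over Sham TSA 2 of 16 intervals lay above 0 (Eya2 at 0.57 and Eya4 at 0.50) and 3 below, against 10.3% and 13.8% of all promoters. In TAC Veh over Sham Veh 1 lay above and 4 below, against 5.82% and 7.2% of all. For the Polycomb list, 13 of 14 ratios were below 0 in TAC TSA over Sham TSA, with 3 intervals below 0 and none above. Of all promoters, 11908 of 22835 ratios were below 0. The list stood at a median percentile of 76.4, and all promoters of decile 8 had a median ratio of −0.13, as had the list. With loess scaling the list median was −0.01. Neither list had a member called in the additive fit.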

How the data were processed

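The authors deposited raw counts, as whole numbers, for the promoter of every RefSeq transcript ID. The submitters' processing notes name BWA 0.5.9 and MACS 1.4.1, with mm9 as the build. No source used here gives the promoter window, the tool that counted, or how duplicates and input were handled. The deposited region lists were not used, since no mm9 annotation was at hand to place them by gene.

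Of 31594 IDs, 31115 (98.5%) were paired with a symbol of RefSeq GRCm38.p6, used for names and sequences only. The 479 others held 1.11% of counts and were left out. Genes averaging at least 10 counts (22835) were tested. Reads of ChIP carry no strand, so overlapping or antisense neighbours share them.

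Libraries were scaled by TMM (edgeR 4.0.16, R 4.3.3). Intervals of ratios are exact conditional (Clopper-Pearson) 95% intervals, which treat PCR reads as independent molecules. The additive model of surgery and drug was fitted with edgeR's quasi-likelihood test, with DESeq2 1.42.0 and limma-voom (limma 3.58.1) as alternatives. It has 1 residual degree of freedom, and the spread of a gene was taken from all genes rather than estimated for that gene. Other alternatives were DESeq2 size factors, loess on mean count (lowess span 0.3), receptor promoter factors, no low-count filter, the lowest-count ID and the 95th percentile of receptor promoters. The methods were tested on simulated data. Tables and figures were made in Python 3.11.15 (pandas 2.3.3, scipy 1.17.1, matplotlib 3.10.9).

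Members and lists were chosen with earlier results of these data known. Named by rule were members apart in any comparison or called in the fit, and the 3 highest and the lowest of each family. The values of 1 member are not reported here, and it enters only counts and medians. Pax8, Sox4, Sox5, Sox6, Sox8, Sox9, Sox10, Sox11, Sox12, Sox15, Sox17, Sox21, Sox30, Eya4, Sox2, Pax9, Lhx4, Lhx8, Six3, Dlx1, Dlx5 and Irx1 were named after their values were seen, as was the difference of surgery ratios.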

Additional observations from a re-analysis of the deposited data

Results flagged for a closer look

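At 2 promoters the same contrast went opposite ways in separate pairs of libraries, with both counting intervals off 0 under TMM scaling. The differences were not tested against a spread between replicates, since each group has 1 library.

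Sox6 was higher in TAC TSA than in Sham TSA (0.23) and lower in TAC Veh than in Sham Veh (−0.44). With loess scaling the ratios were 0.36 and −0.41. With receptor promoter factors both were below 0 (−0.36 and −0.68), so the opposite signs depend on which scaling is used. Sox6 was also higher in TAC TSA than TAC Veh (0.47) and lower in Sham TSA than Sham Veh (−0.20). With receptor promoter factors these were 0.09 and −0.23. Its second window had ratios of 0.30 and −0.26 for the surgery contrasts and 0.56 and 0.00 for the TSA contrasts.

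Irx6 was higher in TAC TSA than TAC Veh (0.63) and lower in Sham TSA than Sham Veh (−0.36). With receptor promoter factors these were 0.24 and −0.39, and the first was then short of 1.5-fold.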

How the results depend on the processing

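Receptor promoter factors moved the median of all promoters to −0.38 in TAC TSA over TAC Veh, −0.61 in TAC TSA over Sham TSA, −0.24 in TAC Veh over Sham Veh and −0.02 in Sham TSA over Sham Veh, and moved the members with it. Their medians became −0.26, −0.51, −0.30 and −0.08. In the same order, 0, 0, 0 and 1 members were then apart and higher, and 7, 17, 8 and 0 apart and lower. No member given as apart changed sign. Of all promoters 100, 102, 116 and 109 were then apart and higher and 3289, 12009, 879 and 173 lower, where TMM gave 927, 1635, 440 and 133 higher and 78, 47, 133 and 132 lower. With loess scaling 1 member was apart and higher in TAC TSA over TAC Veh (Irx4), 1 in TAC TSA over Sham TSA (Irx6) and 1 in TAC Veh over Sham Veh (Sox9), and the median in TAC TSA over Sham TSA was 0.0037. With DESeq2 size factors 1 member was apart and higher in Sham TSA over Sham Veh (Sox1). Counts of members apart stayed within 1.5 times the main count without a low-count filter and with the lowest-count ID. No setting called a member in the additive fit. With the 95th percentile of receptor promoters as cutoff, 50 members exceeded it in TAC TSA, 53 in TAC Veh, 51 in Sham TSA and 52 in Sham Veh. With the 99th percentile these were 37, 37, 38 and 38. No paired analysis was possible because each group has 1 library, and for the same reason no library could be left out of a test. Depth limits the weakest promoters: on 25 to 51 counts, as at Sox1, the interval of the ratio between Sham TSA and Sham Veh ran from 0.28 to 1.75.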

Other observations

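Members with several start sites can differ between their windows. Pax6 has 3 distinct windows in the table, and the one with the fewest counts had 89 counts in TAC TSA, 74 in TAC Veh, 70 in Sham TSA and 95 in Sham Veh. It was at 0.60 (0.14 to 1.07) in TAC TSA over TAC Veh and 0.81 (0.34 to 1.28) in TAC TSA over Sham TSA, past 1.5-fold in both. The window with the most counts was at −0.03 (−0.36 to 0.29) and 0.13 (−0.20 to 0.45). This window was chosen after its values were seen. Lhx6 and Lhx9 each have 2 windows, and no window of either was 1.5-fold apart in any comparison. In Sham TSA over Sham Veh the window with fewer counts was at −0.44 (−0.81 to −0.07) for Lhx9. For Lhx6 it was at −0.21 (−0.41 to −0.01).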
